A study of Homo sapiens with 12 samples.

Results

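HT-29 cells that carried a lentiviral MLKL knockdown (shMLKL) were compared after 12 h of TBZ and after DMSO, with 1 library on each side, so 2 of the 12 libraries of the series. HT-29 is a human line from a colorectal adenocarcinoma. TBZ combines TNF-alpha at 20 ng/mL, BV6 at 2 uM, a SMAC mimetic that antagonises the IAP ubiquitin ligases, and zVAD-fmk at 30 uM, a pan-caspase inhibitor. Both libraries come from the knockdown line, so MLKL depletion is shared by treated and control cells, and the labels do not say how long the DMSO cells were kept. The other libraries come from parental HT-29 cells given DMSO or TBZ for 4 h (1 library each for DMSO and TBZ), and a second experiment with a control line (shGFP) and shMLKL cells, each given DMSO or 5 h of TBZ (2 libraries per group). Members are the RefSeq transcripts of the deposited Cufflinks lists, with their FPKM (fragments per kilobase of transcript, scaled to library size) and the deposited interval, 95% by the convention of Cufflinks. Of 49213 RefSeq entries on the main chromosomes in each list, 12447 were at least 200 bases long and had a mean of at least 1 FPKM over both libraries, and these were compared. With 1 library a side there is no replicate check, no p-value is given, and the deposited interval covers the uncertainty within a library only.

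TNF binds its receptor TNFRSF1A and assembles a complex around RIPK1, which passes the signal to NF-kB and its inflammatory and survival targets. When IAPs are antagonised and caspases are blocked, RIPK1 activates RIPK3, and RIPK3 phosphorylates MLKL, which permeabilises the plasma membrane in the form of death called necroptosis. Without MLKL the upstream kinases can still signal, so transcription can be followed at times when necroptotic cells would have lysed. Interferons act through JAK kinases on a transcription factor complex, ISGF3, which binds the interferon-stimulated response element (ISRE) of antiviral genes.

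MLKL, the target of the knockdown, was below the parental level in both libraries. Its RefSeq transcript NM_152649 (hg19, chromosome 16, 74705753 to 74734789, minus strand) was at 6.31 FPKM (deposited interval 5.65 to 6.97) under parental DMSO and 6.16 (5.57 to 6.74) after parental TBZ. In shMLKL cells the DMSO library held 0.854 (0.611 to 1.10) and the 12 h library 2.14 (1.82 to 2.47), which are 13.5% and 34.0% of parental DMSO. With the assembled transcripts of the locus added, the MLKL gene totals were 8.75, 6.16, 2.205 and 3.55 FPKM in the same order. In the second experiment MLKL was at 3.95 and 3.89 in the shGFP DMSO libraries, 1.98 and 2.03 after shGFP TBZ, 0.606 and 0.545 under shMLKL DMSO and 0.651 and 0.395 after shMLKL TBZ. In the first experiment MLKL was thus below both parental libraries in both shMLKL libraries, and higher after 12 h of TBZ than under its own DMSO. In the second it was below all shGFP libraries in all 4 shMLKL libraries.

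Most epithelial markers were present. Of 13 colorectal markers 10 had at least 1 FPKM in both libraries, among them KRT8, a simple-epithelial keratin, at 2909 under DMSO and 2201 after TBZ, and EPCAM, an epithelial adhesion molecule, at 424 and 312. CDX1, CDX2 and CDH17 lay under 1 FPKM in both. The summed marker level was 6741 under DMSO and 5007 after TBZ. Of 11 leukocyte markers PTPRC, MS4A1, FCGR3A and NKG7 were listed at 0 in both libraries, and the sum of the list went from 1017 to 779, nearly all of it LYZ (1003 and 735). The fibroblast and endothelial sum was 0.303 and 0.481, and SERPINA1 made up 48.4 of the 49.1 and 258 of the 259 FPKM of the kidney and liver list, with ALB, AFP, PAX8 and CDH16 at 0. In bulk RNA a smaller share of cells of a type and less RNA per cell cannot be told apart. The 4 libraries of the first experiment lay between 82.3 and 100% of the deepest in relative depth, and the 12 h library was 1.10 times as deep as its control.

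A transcript was called when its deposited intervals did not overlap, its ratio was at least 2-fold and its mean was at least 1 FPKM. After 12 h of TBZ 1599 transcripts were called higher (12.8% of those compared) and 2069 lower (16.6%). Among the 10831 transcripts above 0 in both libraries 890 were called higher (8.22%) and 1166 lower (10.8%). Deposited intervals alone separated 9083 transcripts (73%), so the 2-fold limit decided most calls. For 14 of these the FPKM values stood the other way round, because 1 library has a deposited interval of 0 to 0 beside an FPKM above 0, and they were not called. ZNF341 (0.995 and 1.99 FPKM), CA12 and ZNF776 were just inside the limit, and ULBP2 (4.29 and 8.58), JMJD8 and HNRNPL just outside it. DMSO libraries of the shMLKL and parental lines, compared by the same rule, gave 2730 calls in both directions together (21.8%), against 3668 (29.5%) at 12 h.

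Cufflinks spread reads between RefSeq isoforms and transcripts that it assembled anew, and 1616 of the transcripts compared were listed at exactly 0 in 1 library. Each gene was therefore described by its leading transcript, the one with the highest mean FPKM, and by its gene total, which adds the assembled transcripts of the locus. Of 9827 genes, 1060 leading transcripts were called higher (10.8%) and 1380 lower (14%). The gene total was above 0 in both libraries and moved 2-fold the same way for 454 genes called higher (4.62%) and 446 called lower (4.54%), and these are called supported here. Of the 2108 called leading transcripts with a gene total above 0 in both libraries, 770 had a total that moved the same way by less than 2-fold and 438 (20.8%) one that moved the opposite way. The same rule gave 125 (1.27%) and 71 (0.722%) of 9832 genes between the DMSO libraries of the knockdown and parental lines, and 461 (4.79%) and 760 (7.9%) of 9624 in parental cells after 4 h of TBZ. The median log2 ratio was −0.14 over leading transcripts and −0.15 over gene totals, and ratios are given as deposited, without subtracting it.

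**Figure D1:**
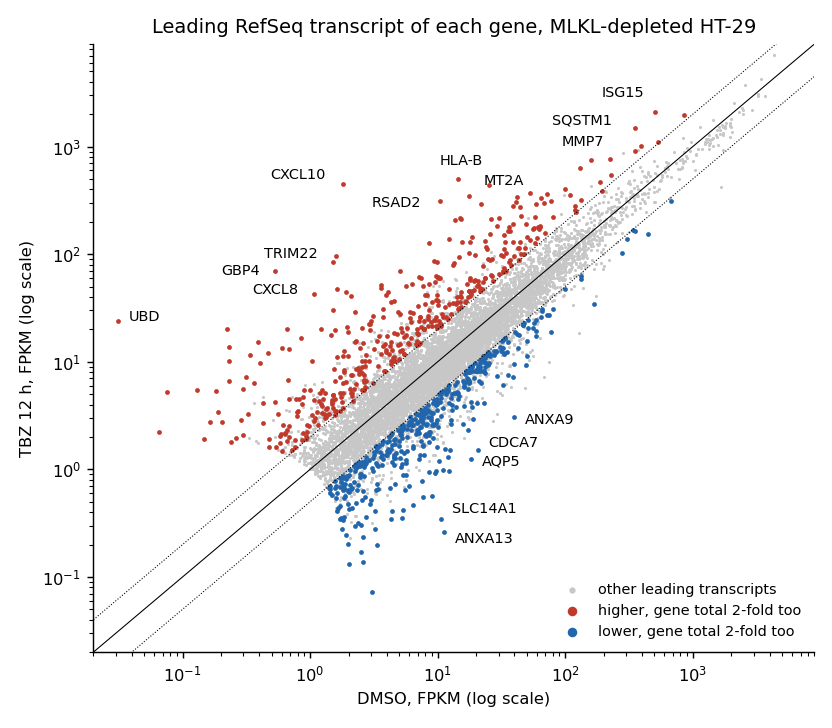
FPKM of the leading RefSeq transcript of each gene above 0 in both libraries, DMSO on the x axis and TBZ 12 h on the y axis, both on log scales, with the line of equality and dotted 2-fold lines. Red and blue points are the supported higher and lower genes (454 and 446, less those with a leading transcript at 0); CXCL10 (1.80 and 446 FPKM) and UBD lie farthest above the line, and ANXA13 (11.2 and 0.263) lies far below it.

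Of the 12 genes with the largest ratios above 1, CXCL10, CXCL11, CXCL8 and CCL22 are chemokines, and TNFSF13B and IL32 are cytokines. CXCL10, a chemokine that recruits T cells through CXCR3, was at 1.80 FPKM (1.38 to 2.22) under DMSO and 446 (427 to 466) after TBZ, a ratio of 248. UBD, a ubiquitin-like modifier induced by TNF and interferon-gamma, was at 0.0309 under DMSO, with an interval that starts at 0, and 24.2 after TBZ, so the size of its ratio is not well fixed. GBP4, an interferon-induced GTPase, was at 0.531 and 69.9, a log2 ratio of 7.04. TNFSF13B, the B cell survival factor BAFF, was at 0.222 and 20.2, and GMPR, a GMP reductase, at 0.0758 and 5.25, again with a DMSO interval from 0. The other large ratios belonged to CXCL11 (1.60 and 95.3), the cytokine IL32 (0.233 and 13.7), the antiviral E3 ligase TRIM22 (1.499 and 85.2), the small GTPase GEM (0.231 and 10.2), the elastase inhibitor PI3 (0.130 and 5.46), CXCL8 (1.06 and 42.9) and CCL22 (0.393 and 15.3). The leading transcripts of all 12 were supported by their gene totals. The ratio was smaller by total for TNFSF13B (35.1 against 90.9) and GEM (15.6 against 44.2), and larger for UBD (925 against 783).

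Type III interferons were among the ligands that were higher. IFNL1 was at 0.847 FPKM (0.492 to 1.20) in the DMSO library and 16.6 (14.9 to 18.2) in the 12 h library, and at 1.89 and 18.5 in the parental pair. IFNL2 and IFNL3 totals went from 0.312 to 8.68 and from 0.176 to 5.19, but these paralogs are near-identical and reads cannot be assigned between them with certainty. IFNB1, the type I interferon made by most cells, had a gene total of 0.226 under DMSO and 2.55 after TBZ. The total of IFNA1 was at 0.164 and 0.183, IFNE, which is constitutive in some epithelia, at 2.49 and 3.02, and IFNG and IFNK were listed at 0 in both. TNF was listed at 0 under DMSO and at 1.32 after 12 h, against 14.9 in the parental cells at 4 h.

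All 11 measured chemokines had a leading transcript called higher, 10 of them supported, against 10.8% and 4.62% of all genes. The median log2 ratio was 3.44 for leading transcripts and 3.94 for gene totals (all genes −0.14 and −0.15). CXCL10 had a log2 ratio of 7.96 at 12 h, 2.48 at 5 h in the second experiment and 4.81 in parental cells at 4 h. CXCL11, which binds the same receptor, had 5.76, 1.26 and 1.11 as gene values. CXCL8, the neutrophil chemokine, had 1.13 FPKM under parental DMSO and 1110 at 4 h, and 10.6 and 5.94 against 218 and 218 at 5 h in shMLKL cells. CX3CL1, a membrane-anchored chemokine, was at 0.660 and 20.0, and CCL5 at 1.96 and 21.3.

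Targets of NF-kB that feed back on the pathway or protect cells were mostly higher. Of 28 measured members 19 were called higher, 13 of them supported, and TRAF1 alone was called lower, without support from its gene total. Of all genes 10.8% were called higher (4.62% supported). The median log2 ratio of gene totals was 1.43 for the list. ICAM1, a leukocyte adhesion receptor, was at 4.09 FPKM (3.68 to 4.50) and 44.7 (42.5 to 46.8). NFKBIA, the inhibitor that returns NF-kB to the cytoplasm, was at 18.5 (17.1 to 19.9) and 145 (138 to 152), and NFKB2, the precursor of p52, at 6.28 (5.66 to 6.89) and 52.8 (50.1 to 55.6). NFKBIE (3.13 and 26.7) and RELB (7.37 and 60.0) completed the leading members. Calls for BIRC3, NFKBIB, SOD2 and TNFAIP3 rested on a DMSO value listed at 0. The gene totals of SOD2 (10.1 and 146) and TNFAIP3 (0.545 and 12.6) moved the same way, that of BIRC3 was also listed at 0 under DMSO, and that of NFKBIB was at 28.98 and 56.3.

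Nearly every antiviral effector of the interferon response was higher. All 45 members of the list were measured, 41 leading transcripts were called higher and 40 of these were supported, with none lower. Over all genes the shares were 10.8% called higher and 4.62% supported. The median log2 ratio of gene totals was 2.33 for the list. RSAD2, the viperin enzyme that makes a chain-terminating nucleotide, was at 10.4 FPKM (9.71 to 11.1) and 311 (298 to 324). IFIT2, which binds viral RNA complexes with its relatives, was at 25.5 and 443, and RTP4, a receptor chaperone with antiviral action, at 1.51 (1.08 to 1.94) and 30.5 (28.3 to 32.8). ISG15, a ubiquitin-like modifier, was already abundant at 510 under DMSO and reached 2105. ISG20, an exonuclease, was at 8.50 (7.63 to 9.36) and 126 (120 to 132), MX1 at 67.9 and 299, and IFI6 at 224 and 768. The 4 members not called were IFIT1, IFIT5, BST2 and LGALS3BP. IFIT1 was at 61.4 and 90.0 by its RefSeq transcript, but its gene total was 61.4 and 790. SAMD9L rested on a gene total listed at 0 under DMSO.

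**Figure D2:**
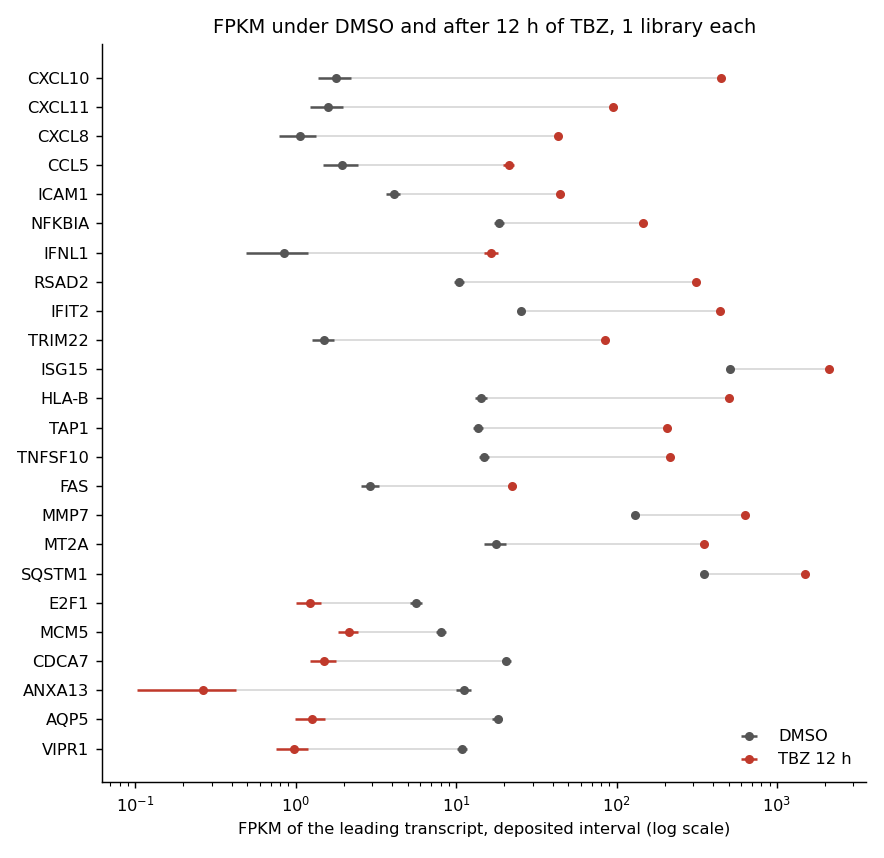
FPKM of the leading RefSeq transcript of 24 genes under DMSO (grey) and after 12 h of TBZ (red) on a log axis, 1 library each, with the deposited 95% interval as the horizontal bar. Intervals do not overlap for any gene shown, and the lowest levels carry the widest bars on this scale, as for IFNL1 under DMSO (0.492 to 1.20).

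Promoter sequence was read for the members with the largest ratios in the NF-kB and antiviral lists that have an entry in the RefSeq promoter table (build GRCh38.p14, 250 bases upstream of the gene start). They show which short letters lie upstream of the gene start, which need not be the start of the compared transcript. For NFKB2 the hg19 RefSeq starts ranged from 104153867 to 104155353. The first is that of a transcript at 0 FPKM in both libraries, and the last that of the leading transcript. Capitals mark matches on either strand to the kB letters GGGNNNNNCC in the first 3 sequences and to the ISRE letters GAAANNGAAA in the last 2. ICAM1 lies at chr19:10270870-10271119 on the plus strand, NFKB2 at chr10:102393860-102394109 on the plus strand, NFKBIA at chr14:35404750-35404999 on the minus strand, RTP4 at chr3:187368135-187368384 on the plus strand and ISG20 at chr15:88638766-88639015 on the plus strand.
ICAM1: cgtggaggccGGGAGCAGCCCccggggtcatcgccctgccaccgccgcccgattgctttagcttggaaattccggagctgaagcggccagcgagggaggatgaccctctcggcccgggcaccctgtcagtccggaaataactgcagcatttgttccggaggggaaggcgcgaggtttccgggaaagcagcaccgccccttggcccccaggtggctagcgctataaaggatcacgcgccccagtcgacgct
NFKB2: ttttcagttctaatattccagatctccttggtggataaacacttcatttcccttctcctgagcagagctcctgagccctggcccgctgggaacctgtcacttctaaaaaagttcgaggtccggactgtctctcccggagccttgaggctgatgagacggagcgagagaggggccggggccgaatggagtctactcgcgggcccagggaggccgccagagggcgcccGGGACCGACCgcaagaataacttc
NFKBIA: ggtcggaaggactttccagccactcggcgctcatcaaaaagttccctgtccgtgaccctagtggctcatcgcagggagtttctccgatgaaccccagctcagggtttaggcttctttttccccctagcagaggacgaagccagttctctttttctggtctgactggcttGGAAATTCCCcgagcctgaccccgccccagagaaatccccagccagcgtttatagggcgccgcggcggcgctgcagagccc
RTP4: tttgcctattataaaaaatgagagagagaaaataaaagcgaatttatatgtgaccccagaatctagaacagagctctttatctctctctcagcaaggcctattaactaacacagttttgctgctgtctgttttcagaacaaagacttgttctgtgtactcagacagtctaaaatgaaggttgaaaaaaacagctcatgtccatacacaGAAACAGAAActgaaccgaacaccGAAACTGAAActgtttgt
ISG20: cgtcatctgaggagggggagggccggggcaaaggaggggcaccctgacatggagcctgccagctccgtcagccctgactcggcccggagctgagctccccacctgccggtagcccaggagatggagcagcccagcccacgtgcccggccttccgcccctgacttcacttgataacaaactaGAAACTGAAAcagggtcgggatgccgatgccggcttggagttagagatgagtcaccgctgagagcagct

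In RTP4 the ISRE letters stood at −42 to −33 and −18 to −9 from the start, and in ISG20 at −69 to −60. The NFKBIA match, GGAAATTCCC as read on the gene's strand, stood at −81 to −72. ICAM1 had overlapping matches on both strands from −240 to −230, and NFKB2 had one at −24 to −15. ISG20 also held 2 matches to the kB letters, and the RSAD2 window held neither motif in these letters. Of 38 antiviral effectors with an entry, 22 (57.9%) held the ISRE letters, against 6 of 16 class I antigen presentation genes (37.5%), 1 of 24 NF-kB targets (4.17%), none of 26 DNA replication genes, 2.42% of the 8015 compared genes with an entry and 3.07% of all 27305 promoters. Supported higher genes held them in 13.8% and supported lower genes in 0.862%. The kB letters are less selective: 22 of 24 NF-kB targets (91.7%) held them, but so did 70.7% of compared genes, 53.7% of all promoters and 74.4% of supported genes in either direction. A match is a string of letters in this window and was not tested as a bound site.

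Regulators of interferon signalling and nucleic acid sensing were also higher. Of 27 measured, 18 were called higher and all 18 were supported, against 10.8% and 4.62% of all genes. IRF1, a transcription factor induced by interferon, was at 17.6 FPKM and 102, and STAT2 at 10.1 and 60.0, while IRF9, the DNA-binding partner in ISGF3, was at 51.1 and 71.5 and was not called. The RNA sensors IFIH1 (MDA5) and RIGI were at 21.98 and 292 and at 29.4 and 182, and USP18, which removes ISG15 and dampens interferon receptor signalling, was at 17.9 and 129. IFI16, a DNA sensor, was at 2.10 and 40.6. The leading isoforms of ZBP1, EIF2AK2 and SOCS1 were listed at 0 under DMSO, and the gene totals of the last 2 were at 24.1 and 71.6 and at 0.627 and 5.83. STING1 and MAVS, the adaptors below the sensors, were at 12.3 and 6.83 and at 13.8 and 12.4, neither of them called. DHX58, IFNGR2 and IRF3 were called lower because their leading isoform was listed at 0 after TBZ, and the gene totals went the other way (12.6 and 21.5, 36.0 and 142, 59.0 and 83.2).

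Class I antigen presentation was higher as a set, with 14 of 20 measured members called and supported, against 4.62% of all genes. The median log2 ratio of gene totals was 1.54 for the list. HLA-B, a class I heavy chain, was at 14.4 FPKM and 499 by its RefSeq transcript and at 62.1 and 499 by its gene total. TAP1, a subunit of the peptide transporter, was at 13.8 (12.7 to 14.8) and 207 (198 to 216), and its partner TAP2 at 10.5 and 60.4. HLA-C was at 52.7 and 370, HLA-E at 109 and 354, and B2M, the light chain, at 860 and 1981. HLA genes are polymorphic and similar to each other, so the split of reads between them is uncertain. NLRC5, the transactivator of class I genes, had a gene total of 1.48 and 24.3. PSMB9, an immunoproteasome subunit, was listed at 0 after TBZ in both its transcript and its gene total, against 4.34 and 9.29 under DMSO, while the other subunits PSMB8 (35.4 and 165) and PSMB10 (44.4 and 129) were called higher. Of the class II list only CD74, the invariant chain, and HLA-DMB were measured, the first at 2.24 and 29.1 and the second with a gene total of 7.88 and 0.874.

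**Figure D3:**
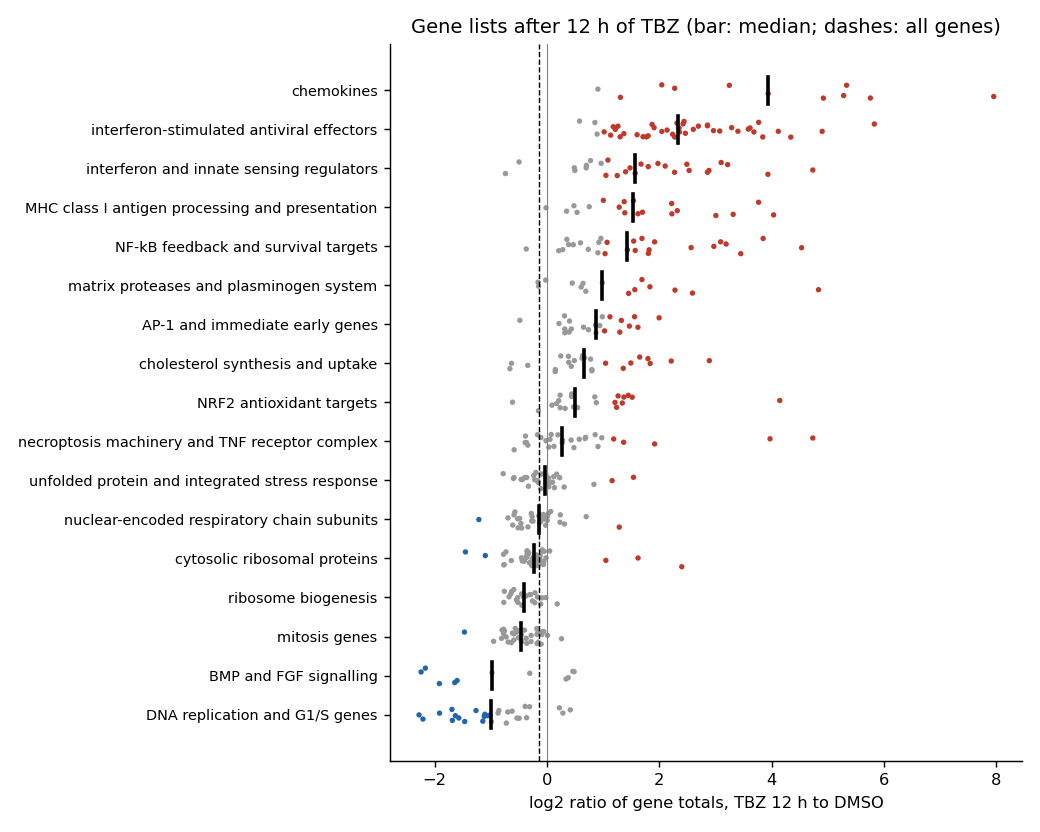
Log2 ratio of gene totals, TBZ 12 h to DMSO, for the members of 17 lists above 0 in both libraries, with the list median as a bar and the median of all genes (−0.15) as a dashed line. Red points are at least 2-fold higher and blue points at least 2-fold lower; chemokines (median 3.94) and antiviral effectors (2.33) lie farthest right, and DNA replication genes (−1.003) farthest left.

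Components of the death machinery were called higher in a minority of cases, though more often than all genes. Of 30 genes of the necroptosis pathway and TNF receptor complex 10 were called higher, 5 of them supported, and 2 lower, neither supported. Of all genes 10.8% were called higher (4.62% supported) and 14% lower. The median log2 ratio of gene totals was 0.27, and 8 of 28 totals lay below DMSO. ZBP1, a nucleic acid sensor that can activate RIPK3, had its leading isoform listed at 0 under DMSO and at 17.2 after TBZ, and its gene total was at 1.33 and 35.4, a log2 ratio of 4.73. The same gene had log2 ratios of 0.64 at 5 h and 1.05 in parental cells at 4 h. TNFRSF1B, the second TNF receptor, was at 0.146 and 1.90, and CYLD, a deubiquitinase of the RIPK1 complex, at 0.879 and 4.69. RIPK1 was at 7.62 and 21.2 by its RefSeq transcript but at 13.3 and 21.2 by its total, and RIPK3 was at 3.55 and 6.24, neither of them supported. TNFRSF1A was at 62.8 and 65.2, BIRC2 (cIAP1) at 20.4 and 30.6 and CFLAR, the caspase-8 regulator cFLIP, at 15.9 and 32.4. CASP8 was listed at 0 in every RefSeq isoform under shMLKL DMSO, with a total of 30.5 after TBZ and of 12.3 and 16.5 in the parental libraries, so no ratio is given for it. TRIM28, a transcriptional corepressor, was at 129 and 124.

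Other death and survival lists differed in the share of their members that were called. TNFSF10, the death ligand TRAIL, was at 14.9 FPKM (13.8 to 16.1) and 216 (206 to 225). FAS, a death receptor, was at 2.93 (2.54 to 3.31) and 22.5 (21.2 to 23.8). These were the supported calls among 8 measured death receptors and ligands. TNFRSF10A, a TRAIL receptor, was called lower without support, since it was listed at 0 after TBZ. Of 21 measured BCL2 and caspase genes 2 were called higher and supported, among them PMAIP1, the BH3-only protein NOXA, at 15.1 and 32.2, and 2 were called lower without support. Of all genes 10.8% were called higher (4.62% supported) and 14% lower. Of 19 p53 targets 5 were called higher and supported, CDKN1A (24.2 and 113), the cell cycle inhibitor p21, and SFN (56.4 and 172) among them, while the median log2 ratio of gene totals over the list was 0.06.

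Stress and metabolic lists differed in how many higher genes they held. Of all genes 10.8% were called higher and 4.62% were supported. Of 18 measured autophagy genes 3 were called higher and supported. The median log2 ratio of gene totals was 0.28 for that list, and 4 totals lay below DMSO. SQSTM1, the autophagy receptor p62, was at 352 FPKM (337 to 367) and 1492 (1430 to 1554), and OPTN, another receptor, had a gene total of 12.6 and 137. MT2A, a metallothionein that binds zinc and copper, was at 17.7 (15.0 to 20.4) and 350 (331 to 368). It was the only called member among 3 measured metallothioneins. Of 23 NRF2 targets 9 were called higher and 8 supported, among them AKR1C1 (2.99 and 24.0), GCLM (5.12 and 20.7), which modulates glutathione synthesis and TXNRD1 (63.2 and 180), with a median log2 ratio of gene totals of 0.50. HMOX1 (9.19 and 12.95) and NQO1 (274 and 380), commonly used NRF2 readouts, were not called. AKR1C1 has close paralogs, so its level is uncertain.

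Cholesterol genes gave 11 higher calls among 25, 7 of them supported, with a median of 0.65. For this and the next lists, the shares over all genes were 10.8% called higher and 4.62% supported. The only lower call of that list, MVK, rested on an isoform listed at 0 after TBZ, and its gene total was at 3.97 and 5.19. INSIG1, the brake on SREBP processing, was at 4.57 and 36.6, and SQLE, a rate-limiting enzyme of sterol synthesis, at 31.5 and 98.9. Among 15 matrix proteases and plasminogen genes 8 were called higher and 7 supported, including MMP7 (131 and 634), a matrix-degrading protease, MMP13 (0.231 and 6.59) and the urokinase receptor PLAUR (25.7 and 88.4). The unfolded protein and integrated stress list gave 2 higher calls and 1 lower among 32, with PPP1R15A (69.8 and 156) the supported one, which is under the shares of all genes (10.8% and 14%). Immediate early genes were modestly higher, with 7 of 22 called, 5 supported and a median of 0.87.

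Genes of DNA replication and the G1/S transition were mostly lower. Of 29 measured 13 were called lower and 12 supported, against 14% and 4.54% of all genes. The median log2 ratio of gene totals was −1.003, and 25 of 28 gene totals above 0 in both libraries were below their DMSO value. E2F1, the transcription factor that drives S phase genes, was at 5.65 FPKM (5.17 to 6.14) and 1.22 (1.01 to 1.43). MCM5, a subunit of the replicative helicase, was at 8.07 (7.48 to 8.67) and 2.14 (1.85 to 2.43), CDC45, its cofactor, at 8.76 and 2.22, and RRM2, a ribonucleotide reductase subunit, at 14.5 and 4.55. MCM6 was at 10.96 and 1.77 by its RefSeq transcript, but its gene total was at 10.96 and 5.52. PCNA (50.9 and 38.8), the sliding clamp, was not called. RFC5, the only higher call of the list, rested on a gene listed at 0 under DMSO.

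Mitotic genes had few supported calls. Of 39 measured 8 were called lower, but CDKN3 (11.3 and 5.40), a phosphatase of cyclin-dependent kinases, was the only supported one. Of all genes 14% were called lower and 4.54% were supported. The median log2 ratio of gene totals was −0.46, against −0.94 in parental cells at 4 h. Of 39 gene totals 37 lay below DMSO at 12 h, against 5918 of 9495 over all genes. MAD2L1, a spindle checkpoint protein, was at 9.55 and 0.902 by its RefSeq transcript and at 9.55 and 5.64 by its total. Cytosolic ribosomal protein genes had a median of −0.24 over 57 members and ribosome biogenesis genes −0.42 over 25, with no supported call in either list.

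Channels, transporters and annexins were among the 12 largest ratios below 1. ANXA13, an annexin of the intestinal epithelium, was at 11.2 FPKM (10.01 to 12.3) and 0.263 (0.102 to 0.425). SLC14A1, a urea transporter, was at 10.7 and 0.349, SLITRK6, a transmembrane protein, at 9.09 and 0.562, GJB1, a gap junction connexin, at 5.28 and 0.356, and AQP5, a water channel, at 18.1 and 1.26. VGLL1, a TEAD cofactor, was at 7.68 and 0.553, CDCA7, a MYC and E2F target, at 20.5 and 1.51, the proton-gated channel ASIC1 at 6.38 and 0.468, and VIPR1, the receptor of vasoactive intestinal peptide, at 10.96 and 0.976. ANXA9 (39.8 and 3.08), CFAP92 (5.34 and 0.415) and the noncoding LOC100294145 (12.3 and 0.962) completed the 12 largest. The gene totals of all 12 moved at least 2-fold the same way, but several moved less than the leading transcript. The fall of CFAP92 was 3.82-fold by total against 12.9-fold by transcript, and that of ANXA9 6.12-fold against 12.9-fold. ASIC1 (5.89 against 13.6), LOC100294145 (5.62 against 12.8) and VIPR1 (6.03 against 11.2) also fell less by total. The other genes had similar or larger falls by total, as SLITRK6 (22.8 against 16.2).

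Supported calls in the BMP and FGF, WNT and stem cell, and intestinal differentiation lists were mostly lower. Of all genes 14% were called lower (4.54% supported) and 10.8% higher (4.62% supported). In the WNT and stem cell list 4 of 13 measured members were called lower, 3 of them supported, and none higher. FGF19, an endocrine FGF, was at 35.6 and 7.51 FPKM, and its receptor FGFR4 at 7.77 and 1.35. In the BMP and FGF list 5 of 11 measured members were called lower, 3 of them supported, with a median of −0.98 for gene totals. SMAD6, an inhibitor of BMP signalling, went from 12.3 to 4.15 by its leading transcript but from 20.3 to 26.4 by its total, so its direction depended on the unit. PROM1, a surface glycoprotein of progenitor cells, was at 7.09 and 1.25, and LGR5, the receptor of intestinal stem cells, at 1.62 and 0.599. Of 15 measured intestinal differentiation genes 3 were called lower and supported and 2 higher, 1 of them supported, with 8 gene totals below DMSO and 7 above it. HNF4A (5.14 and 2.31), a transcription factor of gut and liver epithelium, was among the lower genes, as was VIL1, a brush border actin bundler, with a gene total of 22.2 and 2.63. CA2, a carbonic anhydrase, was the supported higher gene, at 0.579 and 2.06. CA9, a hypoxia-responsive carbonic anhydrase, was at 77.5 and 19.0.

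The 12 h ratios were set beside those of the second experiment (shMLKL, 5 h) and of the parental cells (4 h), which differ in line or experiment as well as in time, so time, line and experiment cannot be told apart, and these values are given without a test. The 5 h table holds gene values whose unit was taken as FPKM. By the same 2-fold limit, with libraries that did not overlap, 309 of 9672 genes (3.19%) were higher at 5 h and 145 (1.5%) lower. Of the 391 supported higher genes that could be compared at 5 h, 137 (35.04%) were higher there too, which is 44.3% of the 309, and 1 was lower. Of 307 supported lower genes 29 (9.45%) were lower at 5 h, which is 20% of the 145. Overlap with parental cells at 4 h, by the call of the leading transcript there, was larger. Of 403 supported higher genes 251 (62.3%) were called higher at 4 h, and of 398 supported lower genes 171 (43.0%) were called lower. Among all 9218 genes compared at both times, 874 were called higher at 4 h and 1665 lower.

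The antiviral effectors had a median log2 ratio of 2.31 at 12 h, 0.48 at 5 h and 0.82 at 4 h over the 43 genes with all 3 values, and 42 of the 43 had a higher ratio at 12 h than at 5 h, as did 42 against 4 h. RSAD2 was at 5.36 and 5.47 in the DMSO libraries of the second experiment and 10.7 and 11.8 at 5 h, and ISG15 at 76.1 and 66.3 against 88.1 and 86.7. NF-kB targets had medians of 1.43 at 12 h, 2.13 at 5 h and 1.99 at 4 h over 27 genes, and 6 of them had a higher ratio at 12 h than at 5 h and 5 a higher one than at 4 h. ICAM1 was at 1.71 and 1.19 under DMSO and 115 and 112 at 5 h. DNA replication genes had medians of −1.003, 0.04 and −0.44 over 28 genes, and 1 of the 28 had a higher ratio at 12 h than at 5 h. Over all 8836 genes with the 3 values the medians were −0.14, −0.01 and −0.25, and 3526 (12 h above 5 h) and 4990 (12 h above 4 h) exceeded the earlier ratio.

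**Figure D4:**
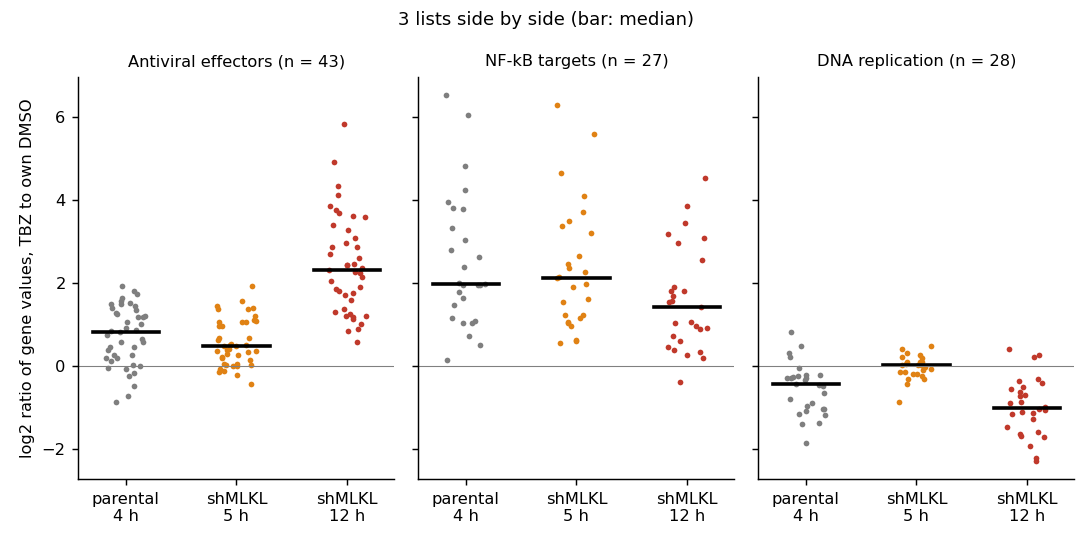
Log2 ratio of TBZ to its own DMSO for each gene of 3 lists, in parental cells at 4 h, shMLKL cells at 5 h (second experiment) and shMLKL cells at 12 h, with the median as a bar. Antiviral effectors (43 genes) have their highest median at 12 h (2.31), NF-kB targets (27 genes) at 5 h (2.13), and DNA replication genes (28 genes) their lowest at 12 h (−1.003).

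Levels in the 2 experiments were scaled separately, so for single genes only the ratios can be set side by side. IFI16, the DNA sensor, was at 4.54 and 3.76 under DMSO and 3.91 and 3.74 at 5 h, a log2 ratio of −0.12, against 3.93 for its gene total at 12 h and 1.51 at 4 h in parental cells. MMP13 had −0.12 at 5 h, 1.34 at 4 h and 4.83 at 12 h. It was at 0.246 and 0.0699 under DMSO and 0.158 and 0.134 at 5 h, and at 0.314 and 0.793 in the parental pair. These values are near the floor, so its earlier ratios are not well fixed. RNF213, an interferon-responsive ubiquitin ligase, had 0.64 at 5 h, 1.53 at 4 h and 2.07 for its total of 28.2 and 118 at 12 h. TRIM22 had 1.45 at 5 h, 1.74 at 4 h and 5.83 at 12 h, with values under 1 FPKM in all 4 shMLKL libraries of the second experiment. Among the lower genes AQP5 was at 3.75 and 4.01 under DMSO and 3.19 and 3.20 at 5 h, and VIPR1 had a log2 ratio of −0.13, so neither was near the 2-fold limit there. In parental cells at 4 h their gene totals had −1.84 and −1.82. SLITRK6 had −3.97 at 5 h, −5.19 at 4 h and −4.51 at 12 h as gene values. PPP1R1B, a phosphatase inhibitor, had a log2 ratio of −3.28 for its gene total at 12 h and 0.49 at 5 h, with values under 1 FPKM in all 4 shMLKL libraries of the second experiment. ALDH3A1 had −2.76 by its leading transcript and −0.44 by its gene total.

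Isoform shares could be read only from the Cufflinks lists. Of 3393 genes with at least 2 RefSeq transcripts and a RefSeq sum of at least 5 FPKM in both libraries, 399 (11.8%) had a transcript whose share of that sum moved by at least 25 percentage points with intervals that did not overlap. The same count was 330 of 3161 (10.4%) in parental cells at 4 h and 426 of 3530 (12.1%) between the DMSO libraries of the knockdown and parental lines, so the share at 12 h lay between these. Assembled transcripts of at least 1 FPKM overlapped 299 of the 399 loci, and 24 genes moved by their whole share. In SRSF3, a splicing factor, NM_003017 was listed at 0 under DMSO and at 46.2 after TBZ, while assembled transcripts went from 114 to 31.3. SERPINA1, a protease inhibitor, had NM_000295 at 0 and 27.0, beside assembled transcripts at 41.6 and 231. ARHGAP12 had NM_018287 at 11.2 and 0, and CCPG1, CELF1, UBE2D3, TMBIM4, ELOC, HNRNPDL and ZFAND1 likewise moved between 0 and 100% for 1 isoform. The part of read assignment in these shares was not tested.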

How the data were processed

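Poly-A RNA was sequenced as 100 nt paired-end reads from stranded libraries, per the labels' protocols. The submitters' processing notes name hg19, GATK, STAR 2.4.0f1, TopHat2 2.0.13 and Cufflinks 2.2.1, without roles. The authors deposited Cufflinks FPKM values with intervals for each RefSeq and assembled transcript of the first experiment, and a gene table of the second whose unit was taken as FPKM from its values. The deposited FPKM values were used as they stand, with no counts and so no count test. Relative depth came from the ratio of coverage to FPKM, and the median half-width of an interval was 8.11% of the value.

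Of 48711 accessions, 47621 were matched to gene symbols by accession and 508 by gene identifier. Calls, leading transcripts, gene totals and list medians were computed in Python 3.11.15 (numpy 2.4.6, pandas 2.3.3), and the calling was tested on simulated data. Promoters came from RefSeq (GRCh38.p14). Coordinates otherwise are hg19. The members and lists were chosen with earlier results of these data known. Named genes are a fixed set of pathway genes, the 12 largest rises and falls among called leading transcripts with at least 5 FPKM in the higher library and above 0 in both, up to 4 called members of each list by size, the 10 largest share shifts, and the 8 rises and 8 falls that most exceeded their 5 h ratio. Further members are named to show a list's uncalled, unsupported or known genes, and were chosen after their values were seen. Values of some items are not reported here. Alternatives changed the filter, fold, interval rule, scaling, pseudocount, unit, share limit and 5 h replicate. The labels do not say whether the libraries came from separate cultures.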

Additional observations from a re-analysis of the deposited data

Results flagged for a closer look

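Among the named genes with a supported higher call at 12 h, GABARAPL1, NR4A1 and H1-2 lay below both DMSO values in both 5 h TBZ libraries of the shMLKL cells, and the difference between times was not tested. The log2 ratio of the leading transcript at 12 h was 1.62 for GABARAPL1, an ATG8 family protein, against −0.08 at 5 h. NR4A1, an immediate early nuclear receptor, had 1.81 against −0.31, and the linker histone gene H1-2 had 1.10 against −0.50. In parental cells at 4 h the gene totals had log2 ratios of 0.52, 4.05 and 0.82 in the same order. The 5 h ratios are small, and the experiments differ in their libraries and baselines. Of the genes with a leading transcript called higher at 12 h, 9 were called lower at 5 h by the 2-fold limit, 1 of them with a supported call at 12 h.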

How the results depend on the processing

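The main counts were 1599 transcripts higher and 2069 lower. A mean of at least 5 FPKM gave 756 and 899, no filter 2943 and 3543, and non-overlap with any ratio in the same direction 3605 and 5464. A 1.5-fold limit gave 3408 lower. Sums of RefSeq transcripts per gene gave 788 and 995. Chosen after seeing the data, gene totals gave 647 and 786, and transcripts above 0 in both libraries gave 890 and 1166. The other settings (no interval rule, median or quantile scaling, FPKM + 1, short transcripts kept) stayed within 1.5 times. Genes with a share shift numbered 163 at 40 points and 211 at a sum of 10 FPKM, against 399. Without either 5 h replicate, 153 to 160 higher and 51 to 54 lower leading calls were shared with 5 h, against 156 and 47. Under gene totals 438 of 2108 called leading transcripts (20.8%) reversed, RPS20 (−0.76) and SMAD6 (0.38) among them; the cause was not tested. No paired analysis was possible because each 12 h group has 1 library and no test was run. Depth limits the genes near 1 FPKM most, since their intervals are widest, and counts could not be recovered from the deposited values.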

Other observations

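RefSeq transcripts of the noncoding class (NR) were called lower more often than those of the coding class (NM). The NR class includes noncoding isoforms of coding genes, such as CASP8. Of 698 with an NR accession 12.5% were called higher and 28.1% lower, against 12.9% and 15.9% of 11749 with an NM accession. These shares include calls on transcripts listed at 0 in 1 library, 1612 over both classes. Of the 1575 of those with a gene symbol, 8.19% had a gene total that moved 2-fold the same way. Support by gene totals was not counted for each class. LOC100294145 (hg19, chromosome 6, 32861953 to 32871535) was at 12.3 and 0.962 FPKM. RMRP, the RNA of the mitochondrial RNA processing ribonuclease, was at 4.81 and 18.3, and RPPH1, the RNA of ribonuclease P, at 3.92 and 12.8; both are short and lack a poly-A tail, so their level in poly-A libraries is uncertain. LINC00944 was at 0.666 and 6.83. These transcripts were picked after their values were seen.

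The SERPINA1 gene total was 48.4 FPKM under DMSO and 258 after TBZ, and CD68, a lysosomal protein counted here among leukocyte markers, was at 8.29 and 41.6, while CD14 was at 5.79 and 1.93. CFB, complement factor B, was at 4.27 and 35.9. ADM, the vasodilator peptide adrenomedullin, was at 2.91 and 22.5.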
